A study of Mus musculus with 16 samples.

Results

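The regions described here were open in double-negative thymocytes and in both kinds of single-positive thymocyte, and carried no peak in the double-positive cells between them. They were chosen by peak calls: the peaks of 4 stages were merged wherever they shared at least 1 bp, and a merged region was kept if it held a peak at DN, SP4 and SP8 and none at DP. The rule kept 7539 of 185978 merged regions, 4.05% of all, and because calls at DP chose them, their loss at DP is a definition and not a finding. They covered 2325894 bp on chromosomes 1 to 19, and their share of the regions of a chromosome ranged from 3.62% on chromosome 7 to 4.73% on chromosome 3.

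Accessible chromatin was profiled by ATAC-seq, in which a transposase cuts open DNA and leaves sequencing adapters there, in 16 libraries from 4 mice. All mice were wild-type C57BL/6J animals aged 9 weeks, and each stage had 4 libraries. Sorted cells negative for a lineage cocktail against erythroid, B, myeloid, dendritic, natural killer and gamma delta T cells were gated as CD4-CD8-CD3- (DN), CD4+CD8+ (DP), CD4+CD8-CD3+ (SP4) and CD4-CD8+CD3+ (SP8). Reads of the 4 mice were pooled before peaks were called, which gave 150139 DN, 107110 DP, 115074 SP4 and 104411 SP8 peaks. Each list therefore has no replicate error, regions are not replicates, and every p-value below compares lists of regions, not mice.

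Thymocytes pass from DN to DP after a T cell receptor beta chain has been made, and from DP to SP4 or SP8 after selection on self peptides bound to MHC molecules. DP cells are mostly small, resting, short-lived cells that rearrange the alpha chain, while DN precursors and SP cells share programs of cytokine response, survival and migration. The interleukin 7 receptor is a textbook case, being expressed at DN, silenced at DP and expressed again at SP.

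Windows of 151 bp are printed for 5 distal regions, to show the DNA behind the calls. The regions near Dpp6, Appl2 and Plekha5 are the 3 distal members with the highest signal at their weakest stage, and the others are the strongest distal members of Il7r and Bach2 by the same measure. All are plus-strand sequence of GRCm38 (mm10), written 5′ to 3′, lie at chr5:27304163-27304313, chr10:83664010-83664160, chr6:140357426-140357576, chr15:9567368-9567518 and chr4:32217122-32217272, and overlap no annotated exon. Capitals mark exact matches, on either strand, to the short motifs named below.
Dpp6: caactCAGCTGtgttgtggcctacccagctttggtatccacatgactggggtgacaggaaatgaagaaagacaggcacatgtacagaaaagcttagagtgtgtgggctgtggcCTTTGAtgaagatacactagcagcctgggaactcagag
Appl2: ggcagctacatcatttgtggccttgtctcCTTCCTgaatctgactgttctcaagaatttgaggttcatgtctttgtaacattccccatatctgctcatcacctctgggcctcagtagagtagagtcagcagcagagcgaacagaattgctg
Plekha5: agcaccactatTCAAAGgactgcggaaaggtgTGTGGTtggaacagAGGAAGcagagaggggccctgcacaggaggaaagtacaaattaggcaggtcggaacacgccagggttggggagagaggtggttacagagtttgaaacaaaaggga
Il7r: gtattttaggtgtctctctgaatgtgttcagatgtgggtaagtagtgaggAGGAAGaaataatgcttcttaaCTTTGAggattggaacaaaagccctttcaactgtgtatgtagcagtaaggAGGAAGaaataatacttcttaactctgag
Bach2: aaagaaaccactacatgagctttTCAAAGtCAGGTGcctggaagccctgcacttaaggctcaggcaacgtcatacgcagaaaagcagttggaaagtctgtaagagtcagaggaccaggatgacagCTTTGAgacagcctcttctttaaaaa

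The motifs were searched on both strands in 101 bp around the mean summit of every merged region, and none of the letter strings contains another. The RUNX string was TGTGGT, held by 15.9% of all regions, the ETS string was AGGAAG, held by 27.0%, and the TCF/LEF string was CTTTGA, held by 8.07%. The E-box strings were CAGCTG, found in 11.4% of all regions, and CAGGTG, found in 14.4%. Others were AGATAA for GATA (3.41%), GGGTGTG for KLF (3.69%), TGANTCA for AP-1 (3.86%) and GAAANNGAA for IRF (2.56%). A match describes letters in a window and is not a bound site. In the printed windows matches were marked over all 151 bp, so some lie outside the 101 bp behind these shares. The printed Plekha5 window held a RUNX, an ETS and a TCF/LEF string, the Il7r window held 2 ETS strings and 1 TCF/LEF string, and the Bach2 window held 2 TCF/LEF strings and 1 E-box string.

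Stage labels were checked at the promoters of marker genes, using the percentile of fold enrichment of a peak within its own stage's list. Ptcra, the surrogate alpha chain of the pre-T cell receptor, stood at percentile 94.5 at DN and 92.3 at DP, against 28.2 at SP4 and 15 at SP8. Rag1 and Rag2, which rearrange receptor genes, stood at 84.8 and 89.0 at DN and at 88.9 and 91.2 at DP, and at 67.2 or less at SP4 and SP8. A promoter peak at Zbtb7b, the CD4 lineage regulator ThPOK, was called at SP4 alone, at percentile 56.4. Cd8a was lowest at SP4, at percentile 18.7, against 70.7 at SP8, but stood at 71.4 at DN, where CD8 is absent. Some markers did not follow their labels. The Cd4 promoter stood at 37.2 at DN and at 16.5 or less at the other stages, Kit at 86.5 at DN but 90 at DP, and Il2ra at 84.8 at DN but 92.2 at SP4 and 93.4 at SP8. Cd8b1 was highest at DN, where CD8 is absent, at 96.3, against 93.6 at SP8, 88.2 at SP4 and 87.7 at DP. Of the mature markers, Ccr7 was highest at DN, at 98.3, against 93.1 at SP4 and 90.8 at SP8. Klf2 was highest at DP, at 93.1, against 92.6 at SP4 and 89.1 at SP8. S1pr1 was highest at SP8, at 78.6, but stood at 72.2 at DP and 64.7 at SP4. Runx3 stood at 95.6 at SP4 and 94.2 at SP8, and Cd3e from 74.5 to 79.4 over the 4 stages. Promoter height thus followed the labels at some markers and not at others. Among markers of other cells, Cd79a, Csf1r, Ncr1, Klf1 and Foxn1 had no promoter region at any stage, the myeloid markers Lyz2 and Itgax had a peak at DN alone, at percentiles of 88.4 and 15.4, and Pax5 and the epithelial marker Epcam were called at all 4 stages, above percentile 86 and from 65.3 to 75.6.

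The members were moderate peaks at the stages that called them. Their median percentile was 43.0 at DN, 39.4 at SP4 and 39.1 at SP8, where regions called at all 4 stages had medians of 73.5, 69.4 and 67.1. Taking for each member the lowest of its 3 percentiles, the median was 23, and 143 members (1.90%) stood above percentile 75 at all of DN, SP4 and SP8. The stage with the highest percentile was DN for 3068 members (40.7%), SP4 for 2342 (31.1%) and SP8 for 2129 (28.2%). No stage was thus the highest for most members. These heights come from the lists that chose the members and are given with no test.

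**Figure D1:**
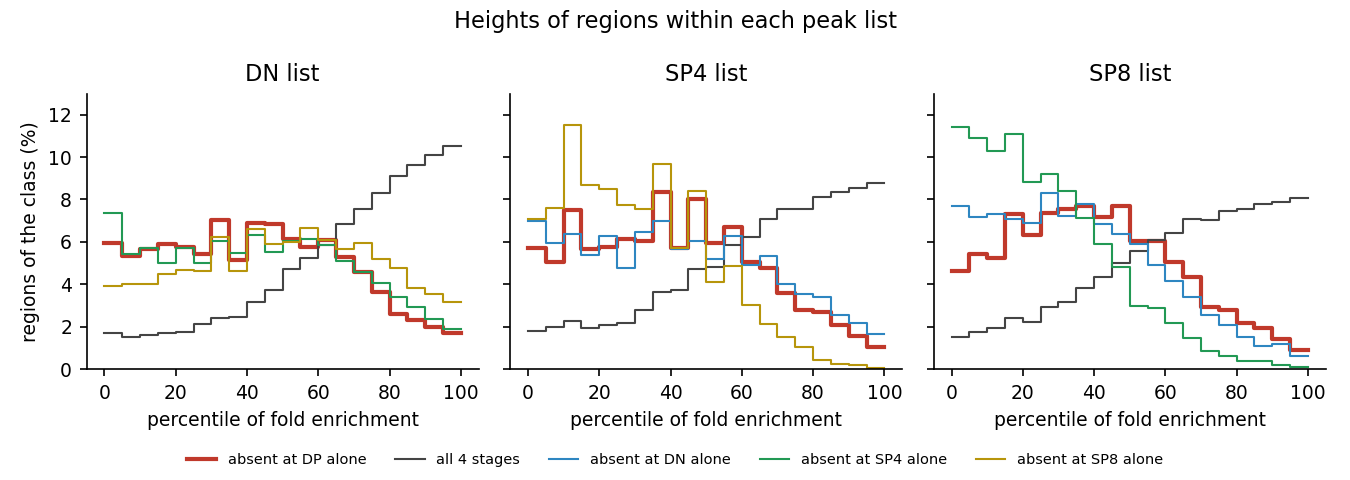
Share of the regions of each class (y axis, %) in bins of the percentile of fold enrichment within the DN, SP4 and SP8 lists (x axis). Regions absent at DP alone (thick red line) spread over the lower and middle bins and thin out at the top, whereas regions called at all 4 stages (dark grey) pile up in the highest bins.

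The rule has a sharp edge in sequence and in height. The member closest to a DP peak lay 2 bp from it, near Klre1, an NK cell lectin-like receptor gene, at chr6:129575397-129575859, with percentiles of 70 at DN, 51.7 at SP4 and 86.1 at SP8. Just outside the rule was a region near Plcl2 at chr17:50580483-50580888, where the DP peak shared 12 bp with the others and stood at percentile 11.8, beside 61.7 at DN, 71.2 at SP4 and 72.0 at SP8. Of the members, 205 (2.72%) had a DP peak within 100 bp and 1300 (17.2%) within 500 bp, and the median gap to the nearest DP peak was 3415 bp. Absence at DP means no peak at a q-value of up to 0.0498, the highest in the DP list, so signal below that height was not measured. With equal numbers of peaks in each list the number of members fell to 4675.

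Most members lay away from promoters. Regions that reached into the 200 bp before a transcription start site (TSS) were counted as promoter, and regions over an exon without a promoter, or over neither, were counted as exonic or distal. Promoters made up 418 members, or 5.54% (95% Wilson interval 5.05 to 6.08, which like all intervals here covers counting error only), against 25.2% of regions called at all 4 stages (-19.7 percentage points). The adjusted p of that difference was too small to write as a number (−log10 of 411), and the share was lower on 19 of 19 chromosomes. Most of this gap went when width was held alike: among regions of 200 to 400 bp it was -3.40 points, and the distal difference was 4.75 points where it had been 19.8. Distal regions were 6145 members, or 81.5% (80.6 to 82.4), and exonic regions 976, or 12.9% (12.2 to 13.7).

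The fairer comparison is with regions that lack another single stage, since these too were called at 3 stages and were of similar width, though lower at their weakest stage (median lowest percentile 15.5 to 20.3, against 23 for members). Promoter share among members was lower than among regions absent at SP4 alone (11.6%, adjusted Fisher exact p = 9.23e-30, lower on 19 of 19 chromosomes) and among regions absent at SP8 alone (8.07%, adjusted p = 1.73e-08, lower on 19 of 19). Against regions absent at DN alone (7.12%) the difference was small, with an adjusted p of 0.00270 and a lower share on 15 of 19 chromosomes. That last difference kept its side of the threshold in 10 of 13 other settings, such as equal numbers of peaks per list (-3.03 points). It turned to 0.259 points higher among members (adjusted Fisher exact p = 0.655) once regions with a peak of the missing stage within 500 bp were left out, and passed no threshold with merging within 100 bp or at widths of 200 to 400 bp. Exonic share was lower than among regions absent at SP4 alone (17.4%, adjusted Fisher exact p = 2.78e-10) and passed no test against regions absent at DN alone (13.1%, adjusted p = 0.786) or SP8 alone (13.8%, adjusted p = 0.173). The p-values are from two-sided Fisher exact tests with Benjamini-Hochberg adjustment over 12 tests.

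**Figure D2:**
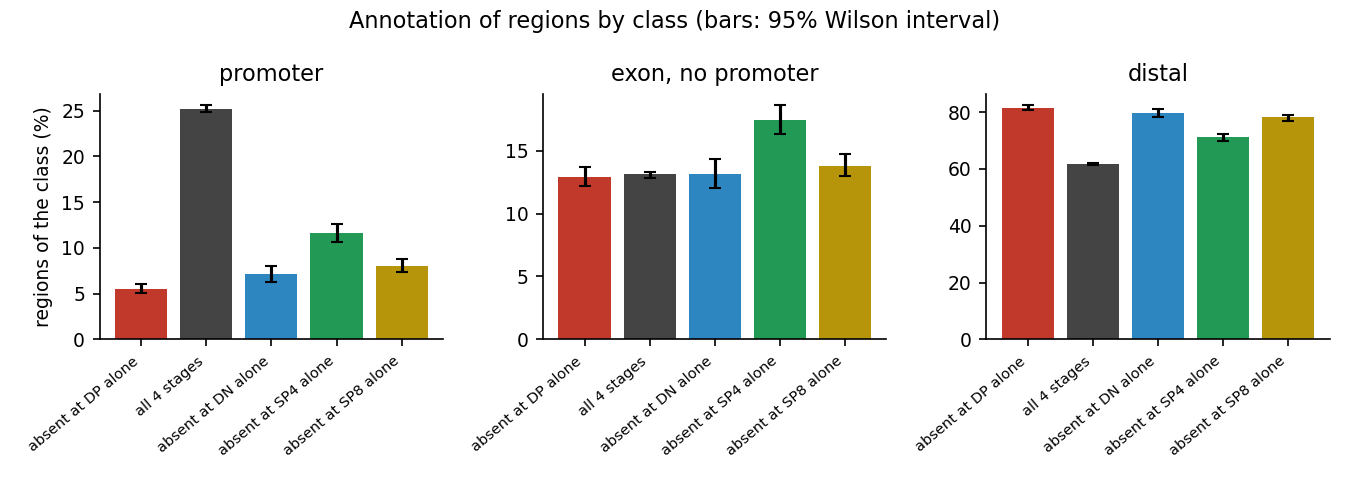
Share of regions (y axis, %) at promoters, at exons without a promoter and at neither (distal) in 5 classes of merged regions, with 95% Wilson intervals. Regions absent at DP alone have a promoter share of 5.54% and a distal share of 81.5%, against 25.2% and 61.7% for regions called at all 4 stages, a contrast that shrinks to -3.40 and 4.75 points among regions of 200 to 400 bp.

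By distance to the nearest TSS the members differed most from 2 of the 4 other classes. The median was 6131 bp for members (95% interval 5897 to 6411) and 3147 bp for regions present at all 4 stages. It was 4215.5 bp for regions absent at SP4 alone, 5945 bp for those absent at SP8 alone and 6155 bp for those absent at DN alone. The members (n = 7539) were farther from a TSS than regions called at all 4 stages (Kolmogorov-Smirnov statistic 0.202, Bonferroni p = 9.66e-240) and than regions absent at SP4 alone (0.113, p = 6.30e-30), on 19 of 19 chromosomes each. The difference in medians from regions called at all 4 stages was 2984 bp, and 1296.5 bp among regions of 200 to 400 bp. Distributions for regions absent at DN alone (0.0382, p = 0.00990) and SP8 alone (0.0328, p = 0.00658) differed little from that of the members (n = 7539). Both calls were lost with summits in the shared overlap and at 200 to 400 bp. The first was also lost with merging within 100 bp and without peaks of the missing stage within 500 bp, the second with equal numbers of peaks per list and with protein-coding transcripts. The median against regions absent at DN alone changed sign under several settings, up to 1067 bp farther for members with equal numbers of peaks per list.

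Distances to protein-coding genes were longer. The median distance to a GENCODE protein-coding TSS was 19950 bp, or 16564 bp with RefSeq transcripts added, 5032 members (66.7%) were over 10 kb away, 2008 (26.6%) over 50 kb and 982 (13%) over 100 kb. With both sources the median of the members differed by -115 bp from that of regions absent at DN alone and by -642 bp from that of regions absent at SP8 alone, but by 405 and 1072 bp with RefSeq transcripts alone, so the order depended on the annotation. With both sources members were 6980 bp farther than regions called at all 4 stages and 6118 bp farther than regions absent at SP4 alone. The body of a protein-coding gene held 4391 members (58.2%), and 3148 (41.8%) lay between such genes. These places, and the shares over 10, 50 and 100 kb, were counted for members only, so they mark no trait particular to them.

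Giving each region to the protein-coding gene with the nearest TSS, 4729 of the 17364 genes with any region, or 27.2%, received at least 1 member. Of these, 3184 genes had 1 member, 896 had 2 and 649 had 3 or more. A small group of 135 genes had 5 or more and together held 846 members. Counts per gene depend on how many regions a gene collects. Most are therefore set beside the gene's total, to be read against the 4.05% of all regions.

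Btg1, an antiproliferative factor of resting lymphocytes at chr10:96617006-96622809, had the most members, 15 of 126 regions (11.9%). None of them lay in the gene, and they stood from 12629 to 228951 bp from its TSS, where the promoter itself was called at all 4 stages. The strongest, at chr10:96519201-96519661, had percentiles of 80.3 at DN, 82.1 at SP4 and 89.8 at SP8. Within 50 kb of the gene body there were 5 members, and within 10 kb there was 1, so the count rests on assigning distant regions to the nearest gene. Of all regions given to Btg1, 98 were called at SP4 and 86 at SP8, against 54 at DN and 53 at DP. The 15 members count at 3 stages and not at DP by the rule.

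Bach2, a transcriptional repressor that holds lymphocytes in a naive state, came next with 14 of 142 regions (9.86%). In contrast to Btg1, 11 of its members lay inside the gene, chr4:32238804-32586108, and the number stayed at 13 or 14 when only members within 10 kb or 50 kb of the gene body were counted. The member highest at SP4, at chr4:32481626-32482087, stood at percentile 95.7 there, at 84.6 at SP8 and at 55.2 at DN, and was 36710 bp from the nearest DP peak. The weakest, at chr4:32252136-32252307, was under percentile 3 at each stage. Regions given to Bach2 were fewest at DP, with 44, against 70 at DN, 97 at SP8 and 107 at SP4, and its 14 members add to all but the first of these by the rule.

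Other genes with many members had varied functions, and for most of them the count fell when regions were given to gene bodies. Gata3, which early T cell precursors and the CD4 lineage both need, had 9 of 124 regions (7.26%), of which the strongest lay 164678 bp from its TSS at chr2:9713350-9713922 with percentiles of 75.4, 77.7 and 63.6 at DN, SP4 and SP8. Within 50 kb of its body there were 4 members and within 10 kb 3. Cblb, a ubiquitin ligase that restrains T cell receptor signalling, had 9 of 69 (13%), with 5 and 4 by the same measures. Rapgef2, an exchange factor for the GTPase RAP1, had 11 of 96 (11.5%), of which 9 lay in the gene, and Rap1b, a RAP1 GTPase that activates integrins, had 8 of 54 (14.8%), with 4 and 3. Mllt3, a subunit of the super elongation complex, had 11 of 64 (17.2%), 8 of them in the gene. Adgrl2, a latrophilin receptor with 13 of 129 regions (10.1%), had none of them within 50 kb of its body, and Zfp386, a zinc finger gene with 11 of 152 (7.24%), had none either, so both counts come from regions far from the gene. Zfp608 had 11 of 107 (7 within 50 kb and 4 within 10 kb), Rnf144a 10 of 94 (4 and 2) and Arhgap26 9 of 94 (12 and 10). Sox5 had 9 of 103, with 4 and 3 by the span of its protein-coding GENCODE transcripts. By the span of all its transcripts, 8 lay inside it. Alpk2 with 8 of 31 (8 and 6) and S1pr1 with 8 of 49 (7 and 2) completed the list of 15. The list ends inside a tie, settled by share. Aff3, Rere, Bcl11b, Med13l and Runx1 also had 8 members, of 77, 103, 131, 146 and 192 regions.

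**Figure D3:**
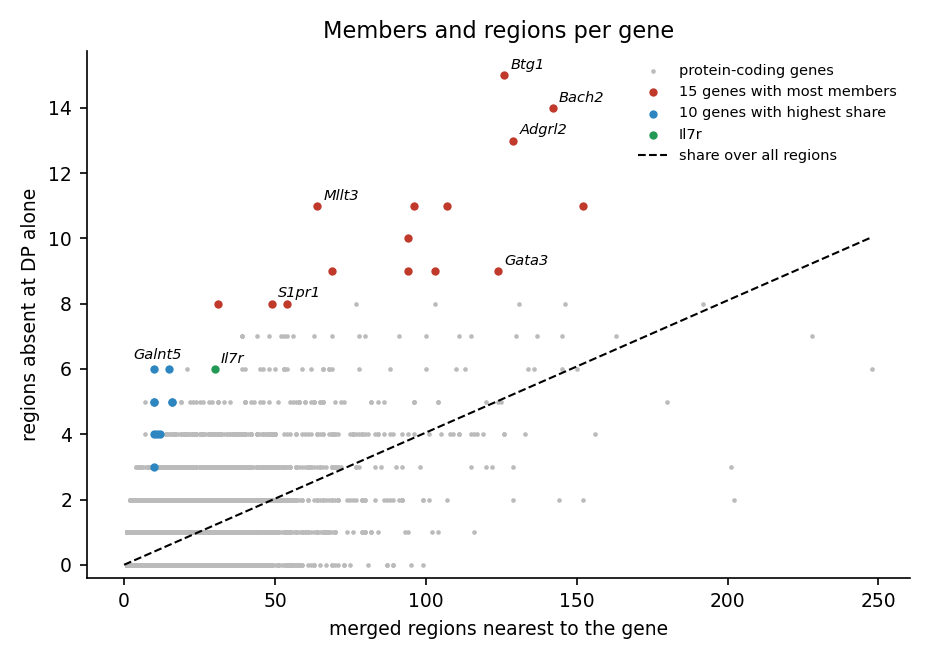
Number of regions absent at DP alone (y axis) against all merged regions (x axis) nearest to each protein-coding gene, 1 point per gene. The dashed line is the share over all regions, 4.05%, and the genes with the most members, such as Btg1 with 15 of 126, lie above it.

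Ranked by share among the 5946 genes with 10 or more regions, a different set came first. Galnt5, a glycosyltransferase gene, had 6 members among 10 regions (60%), and 1 of the 10 was called at DP. Its promoter region, chr2:57997782-57998511, was itself a member, and 3 further members stood together 298809 to 300552 bp upstream, at percentiles of up to 84.4 at DN. Agtr1b, an angiotensin II receptor gene, and Raet1e, which encodes a ligand of the activating receptor NKG2D, had 5 of 10 each (50%). Pid1 had 6 of 15 (40%) and 1 region called at DP, against 13 at DN, 9 at SP4 and 8 at SP8. Anxa1, the annexin A1 gene, had 4 of 10 (40%), among them the promoter at chr19:20390403-20390796. The other high shares were those of Hephl1 (36.4%), Arhgef33 (33.3%), Marco and Sema6d (31.2% each) and Gm11114, which tied with other genes at 30%. Shares over so few regions are imprecise, and these genes were ranked by the very calls that define the members.

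Il7r, the interleukin 7 receptor alpha chain, had 6 members among 30 regions (20%). Of the 30, only 4 were called at DP, against 12 at DN, 26 at SP4 and 22 at SP8, where the rule puts the 6 members in all 3 larger numbers. The 4 were called at every stage and included the promoter, which was highest at DP. It stood at percentile 96.2 there, against 91.9 at DN, 84.1 at SP4 and 74.3 at SP8. The promoter was thus open in DP cells while most of the upstream peaks were not called. The members lay 5296 to 78440 bp upstream of the TSS. The nearest, chr15:9535131-9535536, had percentiles of 44.1 at DN, 85.6 at SP4 and 74.0 at SP8, and the one printed above, chr15:9567319-9567756, had 56.9, 77.7 and 64.0. A wider one at chr15:9580541-9581263 stood at 56.9, 56.8 and 56.4, close to level over the 3 stages. Apart from members, 9 regions were called at SP4 and SP8 alone, 6 at SP4 alone, 3 at SP8 alone and 1 at DN alone, so regions shared by the mature stages alone outnumbered the members. Within 50 kb of the gene body the members numbered 3, and within 10 kb 1.

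S1pr1, the sphingosine 1-phosphate receptor through which mature thymocytes leave the thymus, had 8 members among 49 regions (16.3%). They flanked the gene on both sides, from 10025 to 172982 bp from the TSS, and none overlapped it. Heights of some differed widely between stages: the member at chr3:115758379-115758973 stood at 2.22 at DN, 56.7 at SP4 and 80.2 at SP8, and that at chr3:115702168-115702369 at 75, 13.2 and 42.4. The promoter was called at all 4 stages, at percentiles of 72.2 at DP, 62.7 at DN, 64.7 at SP4 and 78.6 at SP8. Of the 49 regions, 19 were called at DP, against 34 at DN, 38 at SP4 and 40 at SP8, and the 8 members count in the last 3 numbers by the rule.

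**Figure D4:**
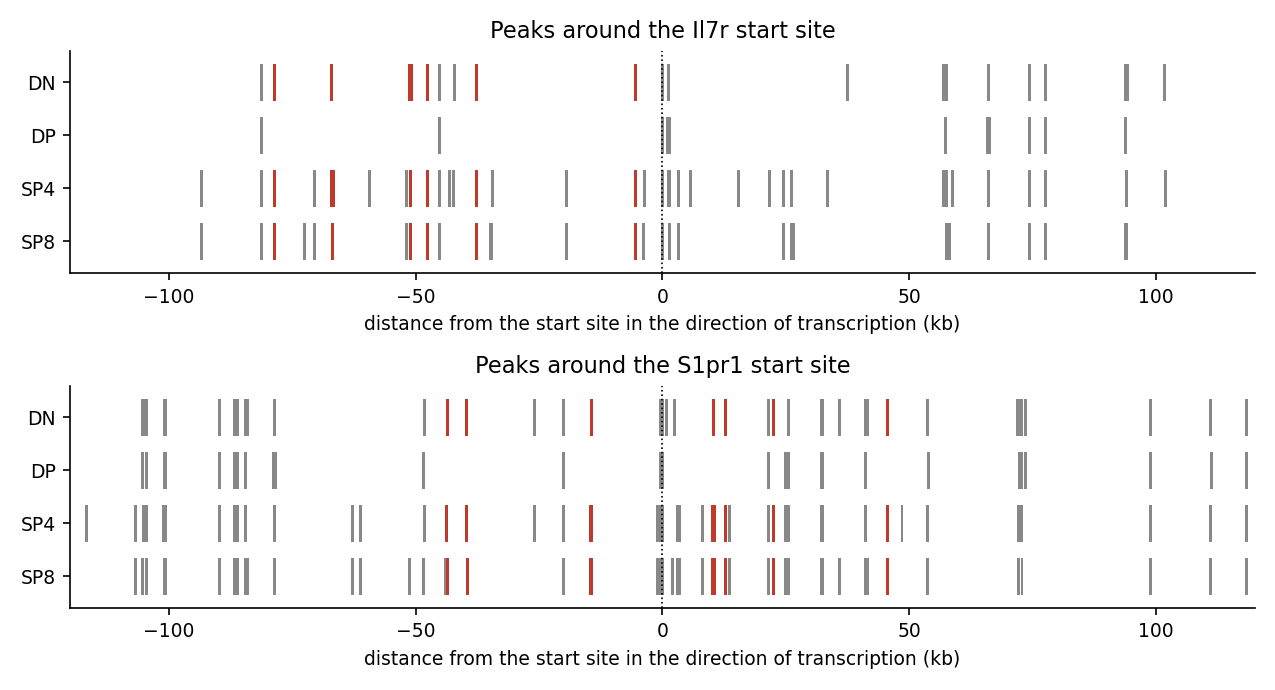
Peaks called at each stage (rows) around the start sites of Il7r and S1pr1, by distance from the start site in the direction of transcription (x axis, kb), with narrow peaks widened to stay visible. Peaks in regions absent at DP alone are red, and so missing from the DP rows by the rule, and all others are grey. A peak stands at both start sites at all 4 stages.

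Lists of genes were described by the share of their regions that were members, beside 4.05% over all regions, with no test. Over all genes with regions 27.2% had a member, and counts of genes with a member depend on how many regions each gene collects. For T cell identity and stage markers the share was 6.85% (25 of 365, interval 4.68 to 9.92), of which S1pr1 held 8 members. Kit, the stem cell factor receptor, had 3 of 46 regions (6.52%), and Runx3, the CD8 lineage regulator, 3 of 77 (3.90%). Cytokine receptor and JAK-STAT genes had 5.47% (40 of 731, 4.04 to 7.37), and 22 of 32 genes had a member. Tgfbr2, a TGF-beta receptor chain, led with 7, followed by Il7r with 6. Cish, a feedback inhibitor of cytokine signalling, had 2 of 9, at its promoter (chr9:107295623-107296126, percentiles 43.3, 76.6 and 58.8) and 9076 bp away, and a promoter or TSS region of Cish was called at DP.

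Genes of cell survival and movement had shares near the background. BCL2 family genes had 5.05% (16 of 317, 3.13 to 8.04), but 3.29% within 10 kb of gene bodies, below the 3.81% over all regions there. Members lay nearest to 5 of 17 genes. These included Bcl2l11, which encodes the death activator BIM, with 6 of 110 regions (5.45%). The survival gene Bcl2 had 5 of 82 (6.10%) and the death activator gene Pmaip1 3 of 15. Migration, egress and adhesion genes had 5.10% (30 of 588, 3.6 to 7.19). There S1pr1 was followed by Itga4, an integrin chain, with 3 of 41 regions (7.32%). Of the chemokine receptor genes, Ccr4 had 2 of 18 regions (11.1%), Ccr7 2 of 36 (5.56%) and Cxcr4 2 of 77 (2.60%). Gpr183, an oxysterol receptor gene, had 2 of 27 (7.41%).

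Antigen receptor genes gave similar shares. TCR complex and proximal signalling genes had 4.50% (46 of 1023, 3.39 to 5.95), led by Cblb with 9 of 69. Then came, with 4 members each, the adaptor Grap2 (12.5% of its regions), the kinase Prkcq (4.76%) and the phosphatase Ptprc (3.17%). With members restricted to those with no DP peak within 500 bp the share of the list was 3.03%, below the 3.35% over all regions. Notch, pre-TCR and recombination genes had 3.58% (23 of 643, 2.40 to 5.31). Myc had 7 of 130 regions (5.38%) and Maml2, a Notch coactivator, 5 of 58 (8.62%). No member lay over a promoter of either list.

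T lineage transcription factors had 4.17% (141 of 3385, 3.54 to 4.89), close to the background. This held although 40 of 53 genes had a member, since these genes collect many regions. With members restricted to those with no DP peak within 500 bp the share was 3.40%, beside 3.35% over all regions. After Bach2 and Gata3 came Bcl11b, which fixes T cell identity, and Runx1, with 8 each (6.11% and 4.17% of their regions). Eomes, a factor of memory CD8 and NK cells, had 6 of 39 (15.4%), Klf6 6 of 50 (12%), Zeb2 6 of 69 (8.70%), Tox 6 of 134 (4.48%) and Foxp1 6 of 248 (2.42%), whereas the genome organiser Satb1 had 3 of 201 (1.49%). AP-1, NFAT and NF-kB factors had 4.59% (40 of 872, 3.39 to 6.19), of which 14 were those of Bach2 and 4 those of Egr3 (10.5% of its regions). Growth, metabolism and cell cycle genes had 2.86% (24 of 838, 1.93 to 4.23), and Ccnd2, the cyclin D2 gene of proliferating precursors, had a promoter member at chr6:127152125-127152764. That promoter member stood at percentiles of 66.3 at DN, 64.0 at SP4 and 51.6 at SP8, 42 bp from a DP peak, and no promoter region of Ccnd2 was called at DP.

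Genes tied to DP cells had a share close to the background. For double-positive stage genes it was 4.02% (26 of 647, 2.76 to 5.82), with 14 of 24 genes having a member. Aqp11, Arpp21, Chst2 and Ets2 had 3 members each (13.6%, 3.53%, 6.12% and 4.35% of their regions). With members restricted to those with no DP peak within 500 bp, this list fell to 2.16%, where the share over all regions was 3.35%. A member at Arpp21 lay over a promoter (chr9:112232311-112232590), although another of its promoter regions was called at DP.

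Interferon response genes had 4.03% (15 of 372, 2.46 to 6.55), and 28 of 34 had a promoter called at DP against 33 at DN and 32 at SP4 and SP8. Over all protein-coding genes the shares with a promoter or TSS region called were 61.0% at DP, 64.6% at DN, 59.4% at SP4 and 59.2% at SP8. Isg15, a ubiquitin-like interferon-induced protein, had a single region, its promoter at chr4:156200717-156200912, which was a member with percentiles of 36.9 at DN, 51.0 at SP4 and 50.6 at SP8. Oas2, a sensor of double-stranded RNA, likewise had a promoter member, at 45.9, 68.9 and 38.6, 248 bp from a DP peak. MHC class I and antigen processing genes had 3.73% (5 of 134, 1.60 to 8.44). The class I gene H2-Q6 and the peptide transporter gene Tap2 had promoter members, at percentiles of 60.2 at SP8 but 4.42 at DN for H2-Q6 and of 10.8 or less at each stage for Tap2. Tap2 had another promoter or TSS region called at DP, and H2-Q6 had none.

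Lists of cells that the gates should exclude or leave rare were counted the same way. Natural killer and innate lymphoid markers had 6.90% (24 of 348, 4.68 to 10.1), with members at 13 of 20 genes, led by Eomes with 6 of 39 regions and Id2 with 4 of 126 (3.17%), which are in the T lineage factor list too. Klre1 had 2 of 9 and Gzmb, the granzyme B gene, 2 of 11. Promoters of this list were called for 12 of 20 genes at DN and 11 at SP8, against 9 each at DP and SP4, and that of Ncr1, the defining NK receptor, at none. Myeloid and dendritic markers had 6.70% (14 of 209, 4.03 to 10.9), with promoters called for 10 of 23 genes at DN and 8 at each other stage, and Cd74, the invariant chain, had a promoter member. Erythroid markers had 8.0% (4 of 50, 3.15 to 18.8), but 3.18% with regions within 50 kb of gene bodies and 2.13% within 10 kb, below the 3.65% and 3.81% over all regions there. Gamma delta T cell markers had 3.90% (15 of 385), regulatory T cell markers 3.51% (11 of 313), B cell markers 2.50% (3 of 120) and thymic stromal markers 3.76% (8 of 213). Within 50 kb and 10 kb of gene bodies the regulatory T cell list had 5.14% and 5.88%, above the 3.65% and 3.81% over all regions there. Genes on X were not analysed here, which took Foxp3 from the regulatory T cell list and 2 of 11 genes from the erythroid list. Genes with no protein-coding entry, such as the T cell receptor constant genes, were not counted either, which left 9 of 16 gamma delta markers and 18 of 21 T cell identity markers. The part of other cells in the calls at DN, SP4 or SP8 was not tested.

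**Figure D5:**
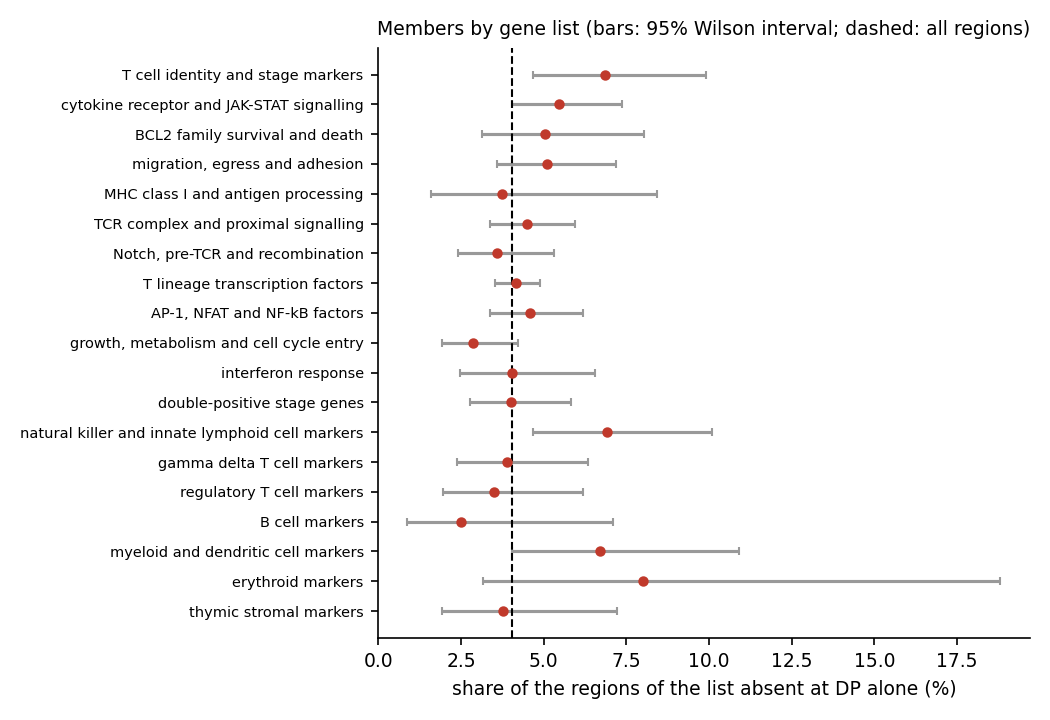
Share of the regions of each gene list that were absent at DP alone (x axis, %), with 95% Wilson intervals that cover counting error. The dashed line is the share over all regions, 4.05%, and the points run from 2.50% for B cell markers to 8.0% for erythroid markers (4 of 50 regions, and 2.13% within 10 kb of gene bodies), with most intervals spanning the line.

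Promoters of genes near members were mostly open at DP. Over all 20698 protein-coding genes, 61.0% had a promoter or TSS region called at DP, against 76.9% of genes nearest to a member and 68.6% of genes nearest to regions but to no member. For genes with 3 or more members the share was 85.4% at DP, beside 87.4% at DN, 86.0% at SP4 and 85.8% at SP8. Genes nearest to regions absent at DN alone had 84.8% at DP, so high shares are no property of the members.

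A minority were the exception. In 165 protein-coding genes a member lay over the promoter or TSS, and 89 of these (53.9%) had no promoter or TSS region called at DP, whereas 76 (46.1%) had another one. Of the 12 such members with the highest percentile at their weakest stage, the first were those of Klra1 (chr6:130386768-130387224) and Klra5 (chr6:129917470-129918101), which encode Ly49 receptors of NK cells. Klra1 stood at percentiles of 79.0 at DN, 78.9 at SP4 and 83.6 at SP8, and Klra5 at 76.9, 78.4 and 79.3, and the nearest DP peaks were 42400 and 111662 bp away. Xcl1, the chemokine lymphotactin made by NK and CD8 T cells, stood at 77.9, 68.4 and 81.8, and Cd86, a costimulatory ligand of antigen-presenting cells, at 83.3, 69.6 and 63.2. Neither had a DP peak at its promoter.

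The other promoters of this rank belonged to genes of varied function. Ildr1, at chr16:36693716-36694315, was much higher at the mature stages, with 98.1 at SP4 and 96.9 at SP8 against 72.0 at DN. Hpn, the serine protease hepsin, had the same order, with 94.3, 90.5 and 67.2. Kcnq3, a potassium channel gene, stood at 72.0 at DN, 84.5 at SP4 and 78.1 at SP8 in sequence of 70.1% GC. Iigp1, an interferon-inducible GTPase, stood at 87.4, 82.7 and 70.7, but like Lrig2 and Slpi it had another promoter region called at DP. Gm6904 and Zp3r made up the 12, and with the genes whose other promoters were called at DP left out, Fbxo39, Gm33543 and 0610040J01Rik followed.

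Members were narrow. Their median width was 264 bp (quartiles 200 and 384), against 465 bp for the regions of all 4 stages and 239, 269 and 265 bp for regions absent at DN, SP4 and SP8 alone. Width reached 2853 bp among regions called at all 4 stages and 1272, 1343 and 1270 bp among those absent at DN, SP4 and SP8 alone. The widest member was narrower than these, at 1203 bp. It lay over a promoter of Sema6d, a semaphorin gene, at chr2:124609763-124610965, and its width came from the DN peak of 1203 bp, while the SP4 peak was 240 bp and the SP8 peak 126 bp. No base of it was covered at all 3 stages.

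Width thus often came from a single stage. Nearest to Nab1, a corepressor of EGR factors, but 115065 bp from its TSS, a region of 1063 bp (chr1:52374609-52375671) was all SP8 peak. It had peaks of 100 bp at DN and 143 bp at SP4 and no base covered at all 3. At Ifit3b, an interferon-induced gene, the promoter region of 967 bp at chr19:34607101-34608067 had an SP8 peak of 967 bp and a DN peak of 121 bp. Rab38, a small GTPase gene, had a DN peak of 916 of 958 bp, and 0610040J01Rik a DN peak of 940 of 940 bp. The region near Rasgrp1, the Ras activator downstream of the T cell receptor, was 1057 bp wide at chr2:117389536-117390592 and held 1 peak at DN and 2 each at SP4 and SP8. The region of 1090 bp nearest to the olfactory receptor gene Olfr693 was an SP4 and SP8 region, with peaks of 1090 and 1039 bp against 169 bp for the higher of 2 DN peaks. Alpk2, an alpha kinase gene, and Sash1, a signalling adaptor gene, had 1160 and 988 bp.

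Ahr, the aryl hydrocarbon receptor, was the 1 gene in both the list of widest and the list of strongest members. Its region at chr12:35578597-35579601 was 1005 bp wide, overlapped an exon of a transcript outside protein-coding genes, and stood at percentiles of 93.8 at DN, 96.1 at SP4 and 98.5 at SP8. The nearest DP peak was 19466 bp away. The higher of its 2 DN peaks spanned 342 bp, the SP4 peak 484 bp and the SP8 peak 985 bp, so most of the width was called at SP8.

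Ranked by the length covered at all of DN, SP4 and SP8, the list of 10 had no member in common with the list by width. Slc44a3, a choline transporter family gene, came first, with 843 of 928 bp shared at chr3:121593002-121593929. The region near Bnip2 followed with 783 of 825 bp at chr9:69940594-69941418, then those near Ccdc54 with 734 bp, Specc1 with 726 bp and Rad51b with 715 bp. Over all members the median shared length was 128 bp, or 52.8% of the width, 41 members shared more than 500 bp, and 112 (1.49%) shared no base. For those 112 the rule joined peaks of 3 stages that overlap in part but have no base in common.

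The strongest members, by the lowest of the 3 percentiles, were distal or exonic. First was a region inside Dpp6, a potassium channel subunit gene, at chr5:27303971-27304570, with percentiles of 99.6 at DN, 94.6 at SP4 and 97.0 at SP8 and folds over the local background of 31.9, 22 and 25.9. No DP peak was called within 432634 bp of it. The region near Appl2, an endosomal adaptor gene, at chr10:83663863-83664263, stood at 97.2, 98.7 and 94.2, and that near Plekha5 at chr6:140357307-140357618 at 96.9, 93.4 and 95.7. Mef2c, a MADS box factor of lymphoid precursors, had an intronic member at chr13:83565866-83566703 with 95.7, 97.1 and 92.6. Of its 57 regions, 52 were called at DN, against 17 at DP and 22 each at SP4 and SP8. The members near Bnip2, Setbp1, A830018L16Rik, Thap4 and Prelid3b completed the list, with no percentile below 92.4. Strong signal at 3 stages with no DP peak nearby was therefore rare but present.

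Members had other members as neighbours more often than regions in general. The region next to a member was itself a member in 573 cases, 7.60%, against 4.05% over all regions, and it was called at DP in 48.1% (46.9 to 49.2), against 54.6% over all regions. The same was true of 60% of the regions present at all 4 stages and of 64.9%, 62.3% and 58.7% of those absent at DN, SP4 and SP8 alone, and the share of the members was lower on 19 of 19 chromosomes in each case. Those 4 classes are called at DP by definition and the members are not, and no other class lacking DP was counted. How often regions of the other classes neighbour their own class was not counted either. Neighbours were called from the same lists, so this is a description with no test. Another member lay within 10 kb for 1418 members (18.8%), which formed 63 groups of 3 or more and 8 groups of 4 or more. The number that their density alone would give was not computed. At Mllt3, 5 members fell within 30012 bp at chr4:88005748-88035759, among 13 regions of which 5 were called at DP. Upstream of Btg1, 4 members fell within 8846 bp at chr10:96581294-96590139, and none of the 7 regions there was called at DP. The other groups of 4 lay near Raet1e, Alpk2 and Rapgef2 and, named after their values were seen, near Galnt9, Arl15 and 4933412E24Rik.

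GC content set the members apart in the same direction on every chromosome. The median was 47.7% (quartiles 44.2 and 51.3), against 51.6% for regions called at all 4 stages and 49.0%, 53.0% and 51.2% for regions absent at DN, SP4 and SP8 alone, and it was lower among members on 19 of 19 chromosomes each time. Repeat-masked sequence took a mean of 15.8% of a member, against 14.1% over all regions and 17.3% in regions absent at DN alone. Within the members, the RUNX string became more frequent with height, which was counted in no other class and not tested. It was held by 18.3% (17.0 to 19.6) of 3313 members with a lowest percentile under 20, by 26.1% (23.8 to 28.5) of 1319 from 40 to under 60 and by 45.7% (35.3 to 56.5) of 81 from 80 upwards. Over the same steps median GC content went from 49.3% to 46.1% and 44.7%, and median width from 236 to 310 and 489 bp, so height, composition and width moved together. Over all steps of 20 percentiles, from the lowest up, the ETS string was held by 23.2%, 24.5%, 28.1%, 27.6% and 14.8%. The interval of the top step of 81 members (8.68 to 24.1) lay below that from 40 to under 60 (25.8 to 30.6). It overlapped that of the lowest step (21.8 to 24.7). The CAGGTG string was held by 8.06%, 8.14%, 6.14%, 5.10% and 3.70%, where the intervals of the lowest and top steps overlap. For the CAGCTG string the shares were 6.25%, 5.59%, 5.38%, 5.34% and 6.17%. Which of these features goes with the absence at DP was not tested.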

How the data were processed

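ATAC-seq gave 16 libraries. BWA alignment to mm10, Picard duplicate removal, reduction of libraries to a common depth, pooling of the 4 mice per stage and MACS2 peak calling at a 5% false discovery rate were done by the authors. The fold enrichment (a ratio over local background) and the −log10 q-value of each peak are as the authors deposited them. The depth of each library was not used here. Peaks of the 4 lists were merged at 1 bp of overlap. Transcripts of GENCODE M21 and RefSeq gave 183467 distinct TSSs. Classes were compared with Fisher exact tests, written to handle very small p-values and checked against scipy 1.17.1 and on simulated regions. Kolmogorov-Smirnov tests were those of scipy and were not part of this check. Other tools were Python 3.11.15, numpy 2.4.6, pandas 2.3.3, pysam 0.24.0, samtools 1.23.1 and matplotlib 3.10.9.

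Named regions are the 10 widest members, the 10 strongest, the 12 strongest at promoters, also without genes with a DP promoter call, and those nearest the rule's edge. Named genes are the 15 with most members, the 10 with the highest share among genes with 10 or more regions, and genes of 19 lists with 2 or more members or a promoter member. Members and lists were chosen with earlier results of these data known. Alternatives changed merging, distance to DP peaks, q-value, list size, summits, promoter, annotation and gene assignment. Some items are not reported here.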

Additional observations from a re-analysis of the deposited data

How the results depend on the processing

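No paired analysis was possible because the values used here are lists of peaks called on reads pooled over the mice, although labels share mouse numbers across stages. Without counts per mouse, leaving out a mouse was not possible either. Of 148 tested differences under alternatives, 117 kept direction and side of the threshold, and 72 of 76 list shares stayed within their interval. The cause was not tested for any change below, beyond what a setting removes or redefines. The restriction to regions of 200 to 400 bp was chosen after seeing the data.

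Equal numbers of peaks per list gave 4675 members, a median TSS distance of 6498 bp and a median width of 293 bp. The median width was 282 bp with merging within 100 bp, 274 bp without peaks of the missing stage within 500 bp and 249 bp with summits in the shared overlap. The promoter share of members was 5.03% without peaks of the missing stage within 500 bp (distal 82.7%, TSS distance 6839 bp), 11.2% with 1000 bp upstream, 6.88% with 200 bp either side and 2.80% by summit. It was 2.89%, 3.38% and 4.36% with protein-coding, RefSeq and GENCODE transcripts, where the median TSS distance was 16564, 12052 and 7810 bp.

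Against regions absent at DN alone, the promoter difference was -0.590 points with merging within 100 bp and -1.11 at 200 to 400 bp, past no threshold, and 0.259 without peaks of the missing stage within 500 bp. The distal difference was 1.78 points in the main setting (adjusted Fisher exact p = 0.0414) and 3.61 with equal numbers of peaks per list, past the threshold. It was 0.582 (merging), 1.73 and 1.65 (q at most 0.001 in all lists, or at DN, SP4 and SP8 alone), 0.882 (summits) and 1.06 (200 to 400 bp), past no threshold, and -0.896 without peaks within 500 bp. The exon difference, never past the threshold there, was 0.00719 (merging), 0.638 (no peak within 500 bp), 0.304 (summits) and 0.0487 (200 to 400 bp). The median TSS difference was -455 bp (merging), -915 bp (no peak within 500 bp), -1.0 bp (summits) and -166 bp (200 to 400 bp), past no threshold. It changed sign to 33 and 0.5 bp (the q-value settings), 1067 bp (equal numbers) and 405 bp (RefSeq).

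Against regions called at all 4 stages, the exon difference was 0.0153 points (merging), 0.0487 (q at most 0.001 in all lists) and 0.242 (summits), and -1.35, past the threshold, at 200 to 400 bp. Against regions absent at SP8 alone, the distal difference was 3.40 points in the main setting (adjusted Fisher exact p = 1.97e-06). At 200 to 400 bp it was 1.56 points, past no threshold, and the exon difference was 0.444. The TSS difference from regions absent at SP8 alone was 440.5 bp (equal numbers) and 0.5 bp (summits), past no threshold. It changed sign to -155 bp (200 to 400 bp) and -642 bp (protein-coding transcripts). Genes with a member numbered 8893 within 50 kb of gene bodies. The widest lists by width and by shared length had 0 members in common.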
